A study of Mus musculus with 12 samples.

Results

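The 7 genes described here are the hepatokine Fgf21, the stress hormone Gdf15, the co-receptor Klb (beta-klotho) and the 4 FGF receptor tyrosine kinases Fgfr1, Fgfr2, Fgfr3 and Fgfr4. They were taken by symbol from the 36047 mouse genes that had a matched transcript, and all 7 were among the 14670 genes with enough counts to be tested. Liver RNA was sequenced from 12 adult male C57Bl/6J mice, 3 in each of 4 groups, after 7 days on diets that all lacked cysteine. RF.Ctrl and HF.Ctrl mice ate control diets with regular and high fat content. RF.SAAR and HF.SAAR mice ate the matching sulfur amino acid restricted (SAAR) diets, in which methionine was reduced and glutamic acid made up the difference. Per the paper, the regular-fat and high-fat diets came from different suppliers, so fat content and supplier cannot be told apart here. The mice were housed singly with food and water freely available, and they were deprived of food briefly before death. Per the paper, the mice were also labelled with deuterium, by an injection of heavy water and then deuterium-enriched drinking water. All groups share the cysteine-free base, the strain, the sex and the deuterium labelling. A control group here is therefore a group with more methionine and not one on a standard chow.

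FGF21 is a secreted hormone that the liver releases when amino acids are scarce or when fatty acids are being burned, and it acts on cells that carry both an FGF receptor, mainly FGFR1, and the co-receptor beta-klotho. FGFR4 with beta-klotho is the hepatocyte receptor for the gut hormone FGF15, which lowers bile acid synthesis. GDF15 is a distant relative of the TGF-beta family that is released by stressed cells and signals through GFRAL in the hindbrain, outside the liver.

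The promoter of Fgf21 is shown because the gene rose more than any other of the 7, and those of Gdf15 because it has 2 annotated start sites. Each is the 250 bases before the start site in the RefSeq annotation of GRCm38.p6, written 5′ to 3′ on the strand of the gene, which for both genes is the minus strand. The Fgf21 stretch is chr7:45615491-45615740, and those of Gdf15 are chr8:70632096-70632345 for the downstream start and chr8:70632457-70632706 for the upstream start. Capitals mark matches on either strand to 3 motifs: TGATGNAA, the form of the amino acid response element bound by ATF4 with a C/EBP partner, CACGTG, the E-box, and TATAAA, the TATA box.
Fgf21: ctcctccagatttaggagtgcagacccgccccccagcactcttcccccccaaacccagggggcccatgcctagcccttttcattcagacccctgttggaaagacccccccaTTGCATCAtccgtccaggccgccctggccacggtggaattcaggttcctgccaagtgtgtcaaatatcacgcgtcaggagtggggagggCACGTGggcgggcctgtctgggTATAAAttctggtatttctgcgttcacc
Gdf15, downstream start: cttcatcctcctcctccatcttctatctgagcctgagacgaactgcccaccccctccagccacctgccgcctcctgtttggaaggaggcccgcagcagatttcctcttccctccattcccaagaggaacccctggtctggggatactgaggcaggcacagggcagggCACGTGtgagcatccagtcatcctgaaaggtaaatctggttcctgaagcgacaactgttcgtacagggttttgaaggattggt
Gdf15, upstream start: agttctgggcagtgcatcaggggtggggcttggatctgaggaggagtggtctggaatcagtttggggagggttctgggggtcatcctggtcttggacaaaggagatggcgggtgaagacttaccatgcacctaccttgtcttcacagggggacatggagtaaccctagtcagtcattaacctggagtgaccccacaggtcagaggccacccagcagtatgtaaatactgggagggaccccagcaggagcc
The Fgf21 promoter held all 3, with TGATGNAA on the opposite strand beginning at position -139, CACGTG at -50 and TATAAA at -28 from the start site. The downstream start of Gdf15 had CACGTG at -83 and neither of the others, and the upstream start had none. Among all 32544 RefSeq promoters, taken as windows of 300 bases that run 50 bases past the start, TGATGNAA was present in 3.91%, CACGTG in 7.17% and TATAAA in 13.6%, and the first 2 occurred together in 0.203%. RefSeq promoter entries were found for 6 of the 7 genes. Of the receptors and Klb, only the Fgfr2 entry held any of the 3 motifs, a CACGTG at position 29 past its start. A match of letters is a description of the sequence and not evidence that a factor binds there.

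Total estimated counts per mouse lay between 16203094 and 21230092 and levels are given as CPM, counts scaled to a common library total, after scaling by TMM factors. The 7 hepatocyte markers summed to between 63501 and 84738 CPM, and all of them were above 1 CPM in every mouse. In 5 mice the 37 pancreatic acinar genes also summed to over 1000 CPM: 1859 in RF.Ctrl replicate 1, 2123 and 7733 in HF.Ctrl replicates 1 and 2, and 4536 and 20430 in HF.SAAR replicates 2 and 3. The other 7 mice had between 45.0 and 105 CPM of these genes, and no RF.SAAR mouse was among the 5. The SAAR results of each of the 7 genes are therefore also given without those 5 mice, which leaves 2 RF.Ctrl and 3 RF.SAAR mice, with 1 mouse each in HF.Ctrl and HF.SAAR. The marker sums of the other cell types had the following ranges over the 12 mice: stellate cells 215 to 274 CPM, endothelial cells 261 to 306, Kupffer cells 214 to 363, skeletal muscle 229 to 731, adipocytes 11.7 to 75.2 and pancreatic islet 0.610 to 31.8. The cholangiocyte sum was 42.9 to 62.0 CPM in the 6 control mice and 35.2 to 42.9 in the 6 SAAR mice. In the SAAR comparison over both fat levels 6.92% of all genes tested were called. Among these markers, called genes were 1 of 5 cholangiocyte genes, which was lower, 1 of 6 stellate genes, lower, and 1 of 6 endothelial genes, higher. None was called in the other lists. In edgeR no acinar gene was called in HF vs. RF over both diets, where 33 of 34 had an unadjusted p under 0.05 and DESeq2 called 22. The part of any of these cells in the results was not tested, and in bulk liver fewer cells of a type cannot be told apart from less RNA per cell.

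In the main edgeR fit over both fat levels SAAR livers held more Fgf21 and less Fgfr3 RNA than control livers. The other 5 genes did not pass the test for a SAAR effect. A gene was called when its Benjamini-Hochberg adjusted p in edgeR's quasi-likelihood test, over all 14670 genes, was under 0.05. In RF.SAAR vs. RF.Ctrl 1 of the 7 genes was called, Fgfr3, against 1.49% of all genes tested. In HF.SAAR vs. HF.Ctrl 2 of the 7 were called, Fgf21 and Fgfr3, against a background of 1.97%. The mean of both differences, SAAR vs. Ctrl over both fat levels, called the same 2 genes, against a background of 6.92%. It uses the same mice as the single comparisons and is not a separate experiment. Neither of these calls over both fat levels held in every setting. That of Fgf21 was lost without the mice with acinar RNA, where 1 mouse is left in each high-fat group. That of Fgfr3 was lost when the deposited effective lengths entered the fit. Nothing in the labels says how mice were assigned to diets or batches, so these p-values measure the spread between these 12 mice alone.

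**Figure D1:**
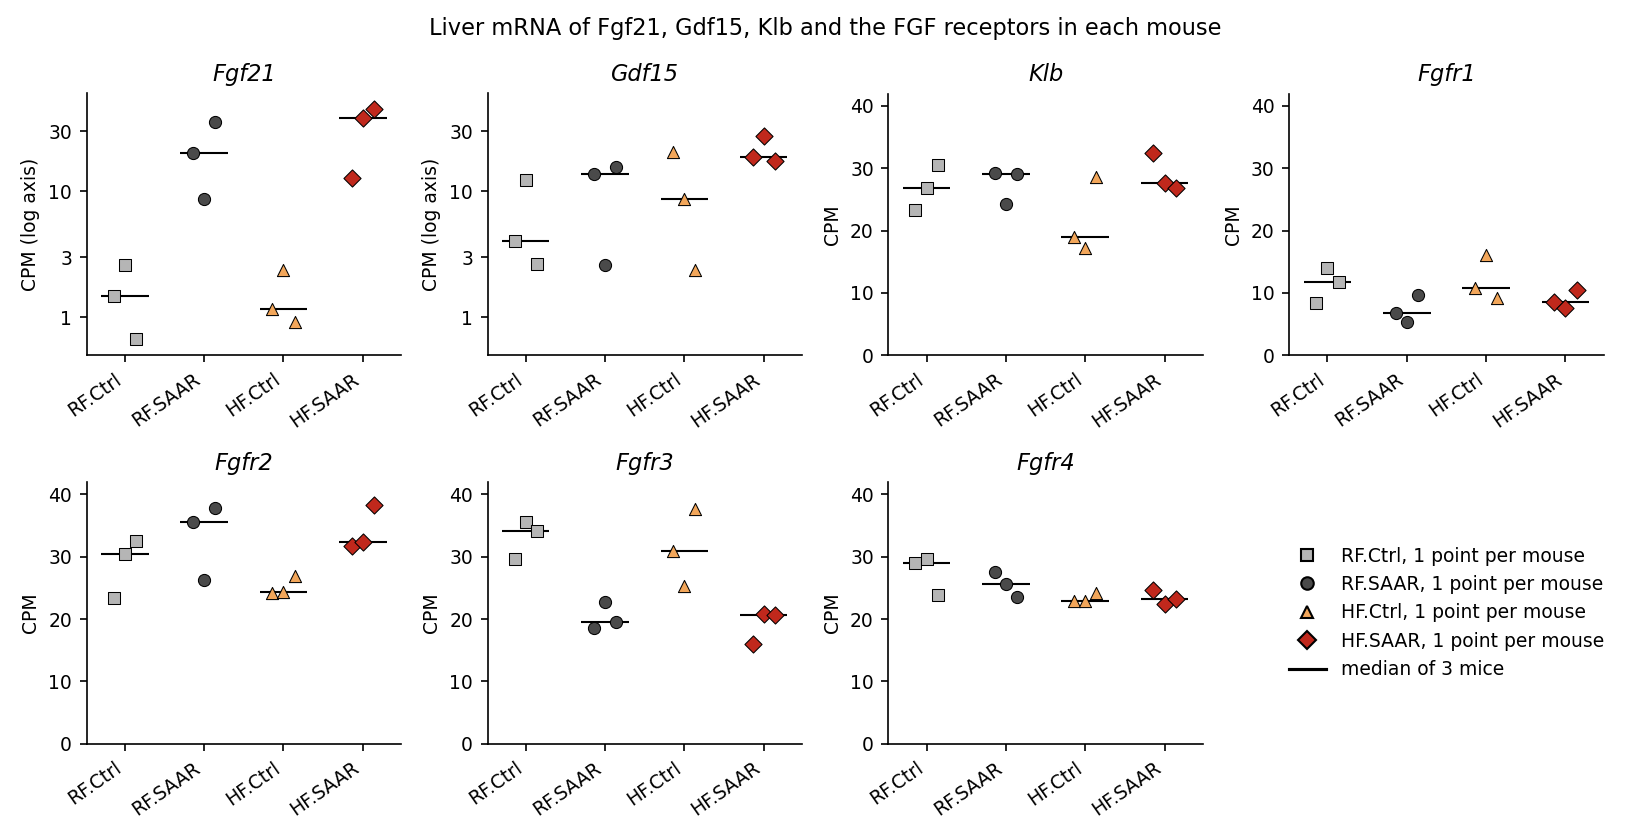
Normalized CPM of each of the 7 genes in each of the 12 mice by diet group (log axis for Fgf21 and Gdf15, linear axes from 0 for the others), with each point 1 mouse and the horizontal bar the group median. The 6 SAAR mice sit above all 6 control mice for Fgf21, from 8.64 to 45.5 against 0.668 to 2.61 CPM, and below all 6 for Fgfr3.

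Fgf21, which lies on chromosome 7 (GRCm38, 45613886 to 45615490, minus strand) and has a single annotated transcript, had few reads in control liver. RF.Ctrl mice had 1.49, 2.61 and 0.668 CPM, which stand for 26, 51 and 11 estimated read pairs. RF.SAAR mice had 20.0, 8.64 and 35.8 CPM. The lowest SAAR value on regular fat was thus above the highest control value, with no overlap. HF.Ctrl mice had 1.16, 2.39 and 0.914 CPM. HF.SAAR mice had 12.8, 38.5 and 45.5 CPM, again without overlap. In CPM the spread within the SAAR groups was wide compared with the control groups, whose levels were far lower. A difference in spread relative to the level was not tested.

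The fitted log2 fold change of Fgf21 was 3.73 ± 0.75 (SE) in RF.SAAR vs. RF.Ctrl, a 13.2-fold difference with a 95% interval of 2.02 to 5.43 on the log2 scale. Its adjusted p of 0.0533 in edgeR fell just short of the threshold. On high fat the log2 fold change was 4.41 ± 0.77, or 21.3-fold, with an interval of 2.67 to 6.15 and an adjusted p of 0.0241 in edgeR. Over both fat levels it was 4.07 ± 0.54, or 16.8-fold, with an adjusted p of 0.00295 in edgeR. In an exact permutation test of the diet labels within each fat level, two-sided, the mean difference of 3.94 in log2 CPM gave p = 0.005, the smallest value the 400 relabelings allow. Fgf21 was higher with SAAR in 6 of 6 mice than in any control mouse. The difference between the 2 fold changes was 0.68 ± 1.08 on the log2 scale (95% interval -1.76 to 3.13, adjusted p = 0.999 in edgeR for the interaction), so a larger response on high fat was not shown. The call on regular fat was made by DESeq2, where the log2 fold change was 3.76 with an adjusted p of 1.79e-05.

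Without the 5 mice with acinar RNA, the log2 difference of Fgf21 was 3.67 on regular fat (adjusted p = 0.357 in edgeR) and 3.77 on high fat (adjusted p = 0.641 in edgeR). The mean of both was 3.72 (adjusted p = 0.230 in edgeR), so the call of Fgf21 over both fat levels was lost as well. On high fat 1 mouse is then left in each group and is assumed to vary like the mice on regular fat. The 3 control mice that carried acinar RNA had 1.49, 1.16 and 2.39 CPM of Fgf21, within the range of the other control mice. The 3 RF.SAAR mice had 45.0 to 105 CPM of acinar genes and between 8.64 and 35.8 CPM of Fgf21. In HF.SAAR, replicates 2 and 3, with 4536 and 20430 CPM of acinar genes, had 38.5 and 45.5 CPM of Fgf21. Replicate 1, with 76.1 CPM of acinar genes, had 12.8. Whether Fgf21 follows the acinar signal was not tested. With the acinar sum as a covariate the log2 fold change was 4.06 on regular fat (adjusted p = 0.0319 in edgeR) and 4.19 on high fat (adjusted p = 0.0217). On high fat the call was lost without any 1 of HF.Ctrl replicates 1, 2 or 3 or HF.SAAR replicates 2 or 3, with adjusted p up to 0.122, while the log2 fold change over all single omissions stayed between 4.08 and 4.96. On regular fat a call was gained without RF.SAAR replicate 2 (4.10, adjusted p = 0.0379 in edgeR) or HF.SAAR replicate 1 (3.73, adjusted p = 0.0356).

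**Figure D2:**
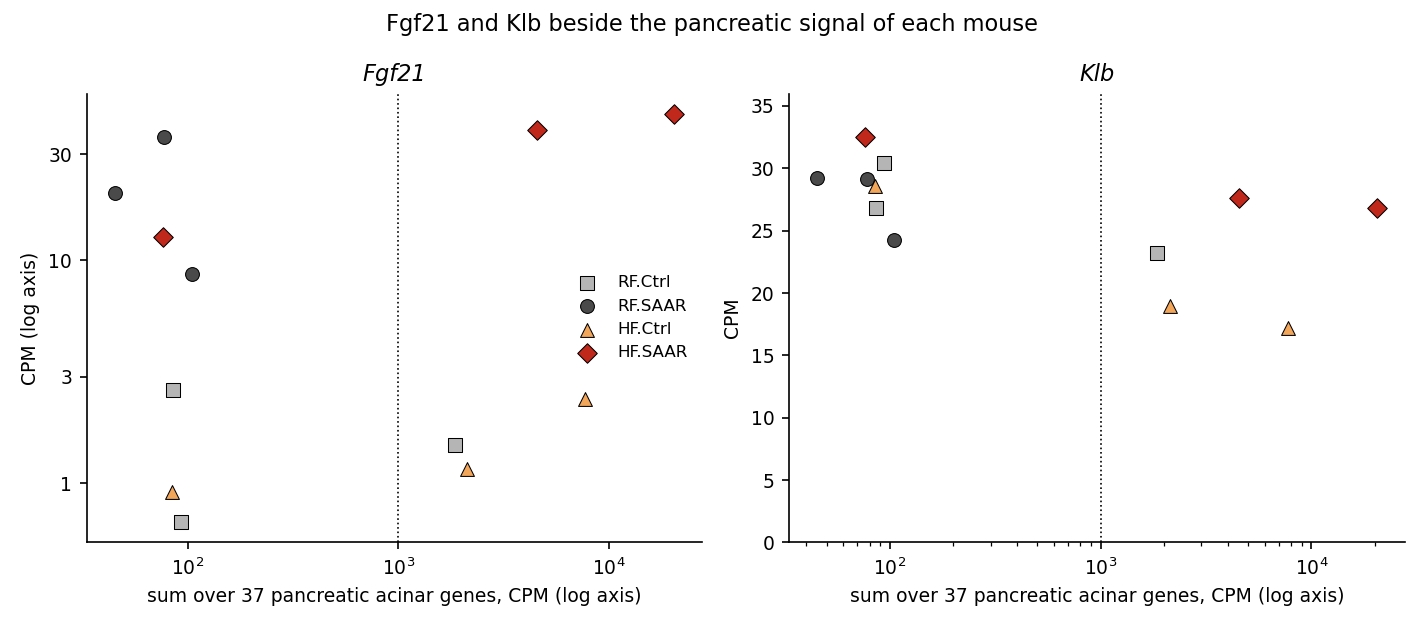
Fgf21 (left, log axis) and Klb (right, linear axis) in CPM against the summed CPM of 37 pancreatic acinar genes (log axis), 1 point per mouse, coloured by diet group, with a dotted line at 1000 CPM. The 5 mice over 1000 acinar CPM include 3 control mice whose Fgf21 was 1.16 to 2.39 CPM, and the RF.SAAR mice, with 45.0 to 105 acinar CPM, had 8.64 to 35.8. In HF.SAAR the mice right of the line, replicates 2 and 3, had 38.5 and 45.5 CPM of Fgf21, and replicate 1, left of it, had 12.8. The lowest Klb values, 17.2 and 18.98 CPM, are those of 2 HF.Ctrl mice to the right of the line.

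Gdf15 (chromosome 8, 70629393 to 70632456, minus strand) varied widely within 3 of the 4 groups. RF.Ctrl mice had 4.01, 12.4 and 2.67 CPM and RF.SAAR mice had 13.9, 2.60 and 15.5, with the groups overlapping. HF.Ctrl mice had 20.5, 8.73 and 2.38 CPM. HF.SAAR mice had 18.7, 27.5 and 17.4, a tight group whose lowest value was still under the highest HF.Ctrl value. The log2 fold changes with SAAR were 0.73 ± 0.88 on regular fat (adjusted p = 0.829 in edgeR, 95% interval -1.29 to 2.75) and 1.02 ± 0.86 on high fat (adjusted p = 0.721, interval -0.94 to 2.97). Over both fat levels the difference was 0.87 ± 0.62 (adjusted p = 0.502 in edgeR), and the exact permutation test gave p = 0.15. When the 5 mice with acinar RNA were left out, the differences were 0.48 on regular fat, 2.95 on high fat, where 1 mouse is left in each group, and 1.72 over both (adjusted p = 0.923, 0.740 and 0.560 in edgeR). The intervals with all mice include no change as well as increases of several fold, so a SAAR effect on Gdf15 was not detectable with 3 mice a group. The HF.SAAR mice were all above the RF.SAAR mice, whose highest value was 15.5 CPM, but the difference of 0.99 ± 0.85 did not pass the test (adjusted p = 0.990 in edgeR). Across the 12 mice the log2 CPM of Gdf15 and Fgf21 had a Pearson r of 0.62, and of 0.63 once the group means were taken out. The 12 points share diets and libraries, and the r is a description.

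Of the 2 annotated Gdf15 transcripts, the one that begins at the upstream start (ENSMUST00000110103, 70632456) held 77.8% of the gene's estimated counts over all mice and the one from the downstream start (ENSMUST00000003808, 70632095) held 22.2%. On regular fat the upstream share was 88.4%, 70.3% and 70.7% in the controls, against 84.7%, 86.0% and 57.2% with SAAR. On high fat it was 89.4%, 70.0% and 38.9% in the controls, against 85.5%, 83.9% and 74.3% with SAAR. Most Gdf15 RNA in all but 1 mouse was thus assigned to the transcript of the upstream start. In that mouse, HF.Ctrl replicate 3, the shares rest on 15.2 and 23.8 estimated counts. kallisto divides reads between these 2 overlapping transcripts, and the error of that division is not in the deposited values. The use of the 2 start sites was not tested. Neither transcript was called in the SAAR comparison over both fat levels, with log2 differences of 0.85 ± 0.63 and 0.88 ± 0.64 (adjusted p = 0.712 and 0.703 in edgeR at the transcript level, where 1.49% of transcripts tested were called).

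Klb, the co-receptor that lets FGF21 and FGF15 bind their receptors (chromosome 5, 65348314 to 65384007, plus strand), was steady across most mice. RF.Ctrl mice had 23.2, 26.9 and 30.4 CPM and RF.SAAR mice had 29.3, 24.3 and 29.1, so the regular-fat groups overlapped. HF.Ctrl mice had 18.98, 17.2 and 28.6 CPM and HF.SAAR mice had 32.5, 27.6 and 26.8. The 2 lowest Klb values were those of HF.Ctrl replicates 1 and 2, which carried 2123 and 7733 CPM of acinar genes. HF.SAAR replicates 2 and 3, with 4536 and 20430, had 27.6 and 26.8 CPM of Klb, and RF.Ctrl replicate 1, with 1859, had 23.2. A link between acinar RNA and Klb was not tested. On regular fat the SAAR difference was 0.04 ± 0.17 on the log2 scale (adjusted p = 0.964 in edgeR, 95% interval -0.33 to 0.41). On high fat it was 0.42 ± 0.17, with an unadjusted p of 0.0292, an adjusted p of 0.318 in edgeR and an interval of 0.05 to 0.80. Leaving out HF.Ctrl replicate 3, the highest of its group, brought this difference to 0.68 with an adjusted p of 0.0445 in edgeR. Without the 5 mice with acinar RNA it was 0.16 (adjusted p = 0.867 in edgeR), and with the acinar sum as a covariate it was 0.50 (unadjusted p = 0.00112, adjusted p = 0.0525). Without those mice Klb differed by -0.055 on regular fat and by 0.054 over both fat levels (adjusted p = 0.925 and 0.874 in edgeR). The exact permutation test over both fat levels gave p = 0.155. Its mean log2 difference was 0.25 in CPM and 0.53 in TPM, which divides by effective length and has no TMM scaling.

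Fgfr3, the FGF receptor best known from bone and hearing (chromosome 5, 33721674 to 33737068, plus strand), was lower in every SAAR mouse than in every control mouse. RF.Ctrl mice had 29.6, 35.6 and 34.1 CPM and RF.SAAR mice had 18.5, 22.7 and 19.5. HF.Ctrl mice had 30.9, 25.2 and 37.7 CPM and HF.SAAR mice had 16.03, 20.8 and 20.6. The groups did not overlap at either fat level, and the spread within each SAAR group was narrow. The log2 fold change was -0.71 ± 0.15 on regular fat (adjusted p = 0.0359 in edgeR) and -0.71 ± 0.15 on high fat (adjusted p = 0.0324). Over both fat levels the level with SAAR was 0.612 times that of the controls (log2 -0.71 ± 0.11, adjusted p = 0.00171 in edgeR), and the exact permutation test gave p = 0.005, the smallest it allows. The interaction was 0.00 ± 0.22 on the log2 scale (95% interval -0.46 to 0.47).

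The Fgfr3 result depended on how transcript length and library scaling were treated. When the deposited effective lengths entered the fit, the difference was -0.64 on regular fat (adjusted p = 0.217 in edgeR), -0.47 on high fat (adjusted p = 0.429) and -0.56 over both (adjusted p = 0.0544). In TPM, which divides by effective length and has no TMM scaling, the groups overlapped. RF.Ctrl averaged 11.6 ± 3.21 (SD, n = 3) against 8.78 ± 1.49 in RF.SAAR, and HF.Ctrl averaged 8.46 ± 3.13 against 7.53 ± 1.12 in HF.SAAR. The exact permutation test on log2 TPM gave a mean difference of -0.24 with p = 0.28. The part of length and that of scaling in this value were not separated. Scaled by library size alone the difference was -0.55 at both fat levels (adjusted p = 0.101 and 0.0891 in edgeR). That scaling also moved the median of all genes up, by 0.16 on regular fat and 0.17 on high fat. Without the 5 mice with acinar RNA it was -0.78 on regular fat (adjusted p = 0.0392 in edgeR) and -1.26 on high fat (adjusted p = 0.106), and over both fat levels it was -1.02 and still called (adjusted p = 0.00753). Leaving out 1 mouse kept the regular-fat difference between -0.80 and -0.65 and lost its call without any single RF.Ctrl mouse, RF.SAAR replicates 1 or 3 or HF.Ctrl replicate 1 (adjusted p up to 0.167). On high fat the same range was -0.84 to -0.55, and the call was lost without HF.Ctrl replicates 1 or 3 or any single HF.SAAR mouse (adjusted p up to 0.147). Over both fat levels the call held in all 12 fits that left out 1 mouse. DESeq2 called Fgfr3 lower on regular fat, on high fat and over both.

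The transcripts of Fgfr3 had differing patterns over the mice, and none of the protein-coding ones named here was called. ENSMUST00000114411, a protein-coding transcript of 4225 bases that held 49.2% of the gene's estimated counts, stood at 16.2, 15.04 and 20.1 CPM in the RF.Ctrl mice, against 10.3, 11.6 and 6.65 with SAAR. High-fat controls had 17.9, 15.9 and 22.01 CPM, against 2.78, 11.1 and 6.33 with SAAR. All SAAR values of this transcript were below all control values, and its difference over both fat levels was -1.15 ± 0.28 (adjusted p = 0.0881 in edgeR over 35707 transcripts). ENSMUST00000164207, with 13.5% of the counts, was at 0 in HF.SAAR replicates 1 and 2. ENSMUST00000171509, with 5.99%, had 2.53 CPM in RF.SAAR replicate 3 and 6.12, 2.28 and 6.06 CPM in HF.SAAR, and at most 0.0051 CPM in the other 8 mice. This last transcript was not called (adjusted p = 0.149 in edgeR over both fat levels). A retained-intron transcript, ENSMUST00000134610, held a further 13.3%, and its test result is not given here. kallisto divides reads among the 17 annotated transcripts of Fgfr3, and the error of that division is not in the deposited values. An unspliced RNA of unknown function, G630022F23Rik, is annotated on the opposite strand within Fgfr3.

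**Figure D3:**
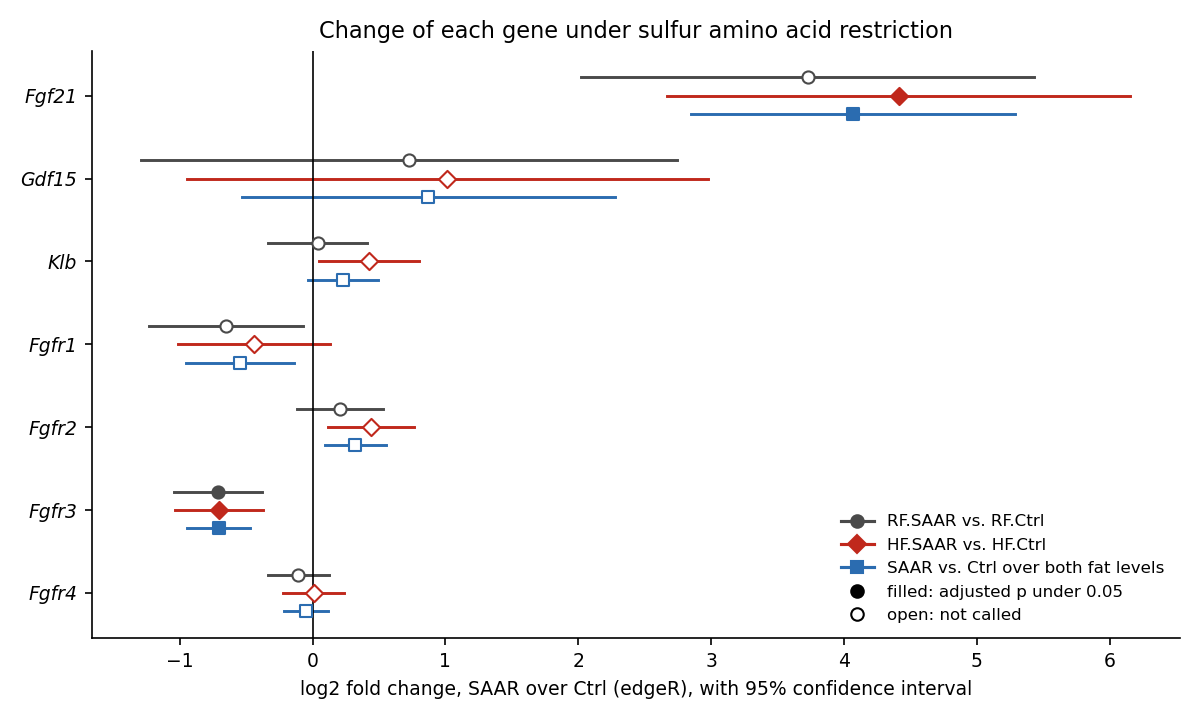
Log2 fold changes of the 7 genes with SAAR on regular fat, on high fat and over both, from the edgeR fit, with lines for the 95% confidence interval and filled markers for adjusted p under 0.05. Fgf21 lies between 3.73 and 4.41 and Fgfr3 at -0.71 in all 3 comparisons, and the other genes lie between -0.65 and 1.02.

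Fgfr1, the receptor through which FGF21 acts on fat tissue (chromosome 8, 25513654 to 25575718, plus strand), had the lowest counts of the 4 receptors. RF.Ctrl mice had 8.31, 14.004 and 11.8 CPM and RF.SAAR mice had 6.74, 5.30 and 9.72. HF.Ctrl mice had 10.8, 16.1 and 9.22 CPM and HF.SAAR mice had 8.47, 7.61 and 10.5. Values with SAAR were lower on average, but the groups overlapped at both fat levels. The log2 fold change was -0.65 ± 0.27 on regular fat (unadjusted p = 0.0301, adjusted p = 0.296 in edgeR), -0.44 ± 0.26 on high fat (adjusted p = 0.559) and -0.55 ± 0.19 over both (unadjusted p = 0.0124, adjusted p = 0.112). The exact permutation test gave p = 0.035, unadjusted. In TPM, which divides by effective length and has no TMM scaling, the difference had the other sign, at 0.13 on the log2 scale. With effective lengths in the fit it was -0.52 on regular fat, 0.15 on high fat and -0.18 over both (adjusted p = 0.556, 0.924 and 0.736 in edgeR). The Fgfr1 differences without the 5 mice with acinar RNA were -0.83, -0.14 and -0.49 (adjusted p = 0.238, 0.941 and 0.359 in edgeR). Its reads were divided among 19 annotated transcripts, of which the largest held 34.5% of the counts.

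Fgfr2, whose epithelial form binds the FGF7 group (chromosome 7, 130162451 to 133123350, minus strand), had differences above 0 with SAAR that did not pass the test. RF.Ctrl mice had 23.5, 30.5 and 32.5 CPM and RF.SAAR mice had 35.6, 26.3 and 37.7, which overlapped. HF.Ctrl mice had 24.2, 24.4 and 26.9 CPM and HF.SAAR mice had 31.7, 32.3 and 38.3, which did not. The differences were 0.21 ± 0.15 on regular fat (adjusted p = 0.632 in edgeR), 0.44 ± 0.15 on high fat (unadjusted p = 0.0118, adjusted p = 0.201) and 0.32 ± 0.11 over both (unadjusted p = 0.00926, adjusted p = 0.0933). The exact permutation test gave p = 0.03, unadjusted. For the mean of both fat levels the gene was called without RF.SAAR replicate 2 (0.39, adjusted p = 0.0292 in edgeR) and when scaled by library size alone (0.49, adjusted p = 0.0189). With effective lengths in the fit the differences were smaller, at 0.068 on regular fat, 0.17 on high fat and 0.12 over both (adjusted p = 0.946, 0.835 and 0.735 in edgeR). They were 0.078, 0.22 and 0.15 without the 5 mice with acinar RNA (adjusted p = 0.905, 0.853 and 0.687 in edgeR). The annotated span of Fgfr2 is 2960.9 kb and includes many other genes, because 1 annotated transcript, ENSMUST00000124096 with 9.59% of the counts, reaches its far end. The largest transcript, ENSMUST00000120187, held 43.6% of them.

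Fgfr4, the main FGF receptor of hepatocytes (chromosome 13, 55152640 to 55168759, plus strand), was the steadiest of the 7 genes in CPM. RF.Ctrl mice had 29.0, 29.7 and 23.9 CPM and RF.SAAR mice had 27.6, 25.6 and 23.5. HF.Ctrl mice had 22.9, 22.9 and 24.1 CPM and HF.SAAR mice had 24.7, 22.5 and 23.2. The SAAR groups overlapped with their controls at both fat levels. The log2 difference with SAAR was -0.11 ± 0.11 on regular fat (adjusted p = 0.757 in edgeR), 0.01 ± 0.11 on high fat (adjusted p = 0.989) and -0.05 ± 0.08 over both, with a 95% interval of -0.21 to 0.11. Without the 5 mice with acinar RNA they were -0.072, 0.014 and -0.029 (adjusted p = 0.900, 0.996 and 0.940 in edgeR). A single transcript, ENSMUST00000005452, held 98.0% of its counts. In TPM, which divides by effective length and has no TMM scaling, Fgfr4 ran from 5.63 to 12.7 over the 12 mice. The mean log2 difference with SAAR used in the exact test was 0.34 in TPM and -0.05 in CPM.

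Per length, Fgf21 passed the receptors only in SAAR liver. In TPM, RF.Ctrl mice averaged 2.21 ± 1.45 (SD, n = 3) for Fgf21 and HF.Ctrl mice 1.75 ± 0.67, the lowest of the 7 genes in both control groups. With SAAR the average was 36.5 ± 23.9 on regular fat and 50.7 ± 28.4 on high fat, the highest of the 7 in both. The order in RF.Ctrl was Fgfr3 (11.6 ± 3.21), Fgfr4 (10.2 ± 2.44), Fgfr2 (9.96 ± 1.91), Klb (7.75 ± 1.39), Fgfr1 (4.82 ± 1.51), Gdf15 (4.64 ± 3.997) and Fgf21. The first 4 of these were within each other's spread, and Fgfr1 did not differ beyond its spread from Gdf15. In HF.SAAR the order was Fgf21, Gdf15 (17.3 ± 2.60), Fgfr2 (12.5 ± 1.49), Fgfr4 (9.92 ± 2.28), Klb (9.51 ± 1.52), Fgfr3 (7.53 ± 1.12) and Fgfr1 (5.64 ± 0.34). In RF.SAAR it was Fgf21, Fgfr2 (12.7 ± 3.89), Fgfr4 (11.2 ± 1.03), Klb (9.69 ± 1.69), Gdf15 (9.56 ± 6.46), Fgfr3 (8.78 ± 1.49) and Fgfr1 (4.05 ± 1.71). In HF.Ctrl it was Fgfr2 (8.81 ± 1.72), Fgfr3 (8.46 ± 3.13), Fgfr4 (6.86 ± 1.67), Gdf15 (6.67 ± 6.07), Klb (5.91 ± 2.60), Fgfr1 (3.92 ± 0.95) and Fgf21. Fgfr1 was the lowest of the 4 receptors in every group.

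**Figure D4:**
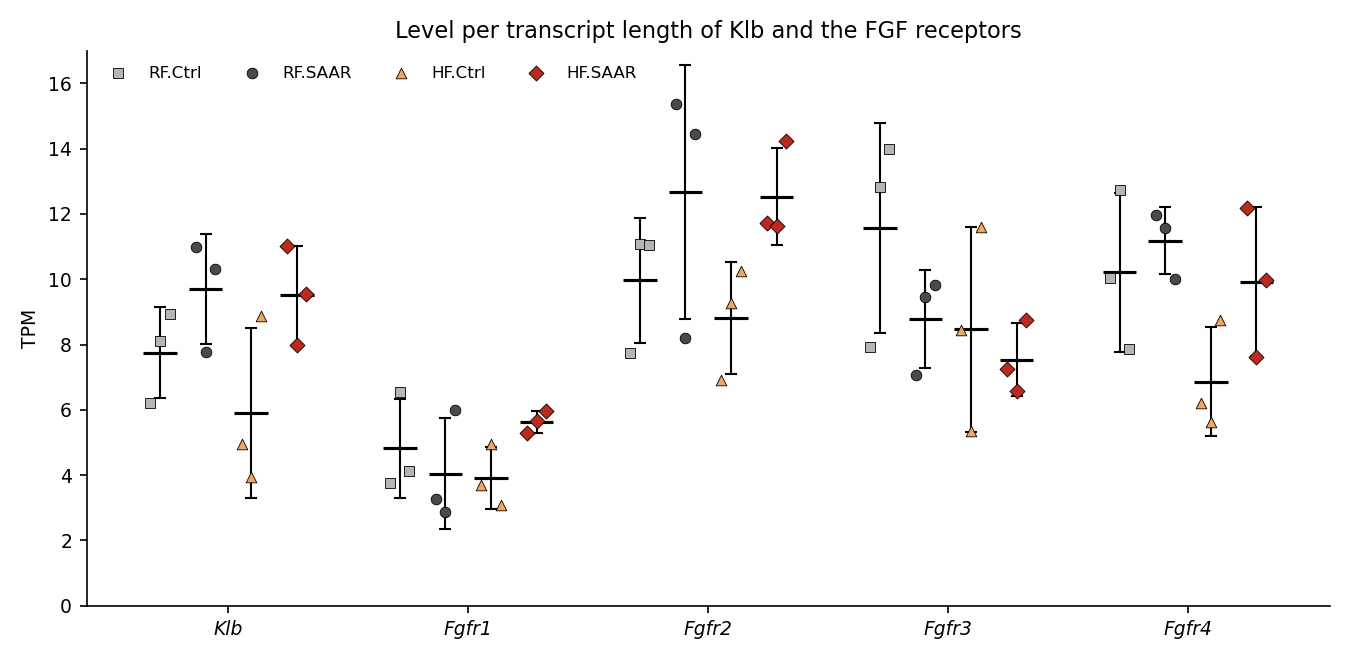
TPM of Klb and the 4 FGF receptors in each mouse, by diet group, with a horizontal bar for the group mean and a vertical line for the SD (n = 3). Fgfr1 averaged between 3.92 and 5.64 TPM and was the lowest receptor in all 4 groups, and Fgfr2, Fgfr3 and Fgfr4 averaged between 6.86 and 12.7.

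No gene of the 7 was called for fat content. Between the restricted groups, HF.SAAR and RF.SAAR, 0 of the 7 were called by edgeR or DESeq2, against 0.0477% of all genes tested, and 0 had an unadjusted p under 0.05. In HF.Ctrl vs. RF.Ctrl, 0 of the 7 were called, where edgeR called 0% of all genes, 527 genes had an unadjusted p under 0.05 and DESeq2 called 34. Fgfr4 had an unadjusted p of 0.0417 there, with a log2 difference of -0.24 ± 0.11 (adjusted p = 0.9996 in edgeR). Over both diets the background of the fat comparison was 0.0409%, and again 0 of the 7 were called. The Fgfr4 difference between high and regular fat over both diets was -0.18 ± 0.08 on the log2 scale (adjusted p = 0.760 in edgeR), with an exact permutation p of 0.03, unadjusted. Fgf21 differed by 0.24 ± 0.54 and Gdf15 by 0.85 ± 0.62 (adjusted p = 0.994 and 0.982 in edgeR). Both had the other sign without the 5 mice with acinar RNA, at -0.81 for Fgf21 and -0.43 for Gdf15, and with the acinar covariate Fgf21 was -0.55 and Gdf15 0.69. Klb in HF.Ctrl vs. RF.Ctrl differed by -0.31 ± 0.17, and by 0.0084 without the 5 mice with acinar RNA. In the interaction of diet and fat the background was 0.00682% and 0 of the 7 were called, with 0 at an unadjusted p under 0.05.

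The other genes of the FGF pathway were read from lists of ligands, partners, signalling proteins, targets and upstream factors. Among 21 other FGF ligands 7 had enough counts to test and 14 did not, among them Fgf15, the ligand of FGFR4, at no more than 0.317 CPM in any mouse. Fgf1, a broad ligand of the FGF receptors, stood at 90.4, 72.3 and 73.6 CPM in the RF.Ctrl mice, against 60.8, 61.98 and 55.98 with SAAR. High-fat controls had 79.4, 85.8 and 93.5 CPM, against 69.8, 82.8 and 57.6 with SAAR, with overlap. It was the 1 ligand called over both fat levels, fell by 0.35 ± 0.09 on the log2 scale (adjusted p = 0.0401 in edgeR) and was not called at either fat level alone. The median log2 difference of the 7 ligands was -0.02, against -0.0039 over all genes, of which 6.92% were called over both fat levels.

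Among 26 co-receptors, binding partners and processing enzymes, 20 were tested. Gfral, the GDF15 receptor, was listed at 0 counts in all 12 mice. In Sulf2, which trims the heparan sulfate that FGFs need to bind, RF.Ctrl mice had 13.8, 10.5 and 12.03 CPM, against 5.65, 6.63 and 6.01 with SAAR. On high fat the controls had 15.6, 12.01 and 13.6 CPM, against 6.81, 6.25 and 6.45 with SAAR. All 6 SAAR mice were below all 6 control mice, and Sulf2 fell by 0.99 ± 0.15 on regular fat and by 1.07 ± 0.15 on high fat (adjusted p = 0.00482 and 0.00149 in edgeR). Mmp14, a membrane metalloprotease, rose over both fat levels by 0.53 ± 0.11 (adjusted p = 0.00918 in edgeR). The list median over both fat levels was 0.01. In that comparison 1 of the 20 genes was called higher and 1 lower, against 6.92% of all genes. None of 19 adaptors and kinases was called in any comparison by edgeR or DESeq2, and 5 of 19 had an unadjusted p under 0.05 in edgeR over both fat levels, where 2974 of all 14670 genes had one. The adaptor list had a median of 0.05.

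Of 20 feedback inhibitors and early targets of receptor signalling, 18 were tested and 1 was called. It was called on regular fat and over both fat levels, where 1.49% and 6.92% of all genes were. Spry4, which inhibits the RAS-ERK branch downstream of FGF receptors, stood at 8.35, 13.1 and 7.96 CPM in RF.Ctrl mice, against 3.78, 3.71 and 3.60 with SAAR. On high fat it stood at 10.1, 9.34 and 10.9 CPM in the controls, against 6.11, 6.56 and 8.01 with SAAR. SAAR values were below control values at both fat levels. Spry4 fell by 1.41 ± 0.20 on regular fat (adjusted p = 0.00387 in edgeR), whereas the difference of -0.55 ± 0.19 on high fat was not called (adjusted p = 0.202), and over both it fell by 0.98 ± 0.14 (adjusted p = 0.000801). The list median over both fat levels was -0.09. In edgeR 0 list genes were called in the interaction of diet and fat, so the 2 Spry4 differences were not shown to differ, and DESeq2 called Spry4 higher in HF.SAAR vs. RF.SAAR.

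All 24 transcription and stress factors known to act upstream of Fgf21 or Gdf15 were tested. In edgeR 1 was called on regular fat, 2 on high fat and 5 over both, of which 4 were higher and 1 lower. The shares of all genes called in these comparisons were 1.49%, 1.97% and 6.92%. DESeq2 also called Nfil3 and Nr1d1 on regular fat, Atf4 on high fat and Nr1d1 over both. It called 606, 605 and 1386 of all genes tested there. Atf5, a stress-induced relative of ATF4, stood at 236, 248 and 202 CPM in RF.Ctrl mice, against 416, 459 and 390 with SAAR. High-fat controls had 186, 168 and 151 CPM, against 550, 438 and 623 with SAAR, with no overlap at either fat level. Atf5 rose by 0.88 ± 0.13 on regular fat and by 1.68 ± 0.14 on high fat (adjusted p = 0.00508 and 2.00e-05 in edgeR). Ppargc1a, a coactivator of fatty acid oxidation genes, rose by 1.18 ± 0.23 on high fat (adjusted p = 0.0185 in edgeR) and had a difference of 0.39 ± 0.22 on regular fat (adjusted p = 0.515). Its high-fat call was lost without HF.Ctrl replicates 1 or 3 or HF.SAAR replicate 1, with adjusted p of 0.0961, 0.0823 and 0.0727.

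Over both fat levels Atf4, the central transcription factor of amino acid scarcity, rose by 0.39 ± 0.11 (adjusted p = 0.0385 in edgeR). Eif2ak3, the kinase PERK that raises ATF4 in ER stress, rose by 0.44 ± 0.12 (adjusted p = 0.0448), and Xbp1, another factor of the ER stress response, fell by 0.64 ± 0.17 (adjusted p = 0.0457). The list median was 0.08. Of 8 bile acid genes downstream of FGFR4, edgeR called 1, Cyp7b1 of the alternative bile acid pathway. Cyp7b1 fell by 0.63 ± 0.16 over both fat levels (adjusted p = 0.0371 in edgeR). DESeq2 called Cyp7b1 and Cyp27a1 lower over both, and Cyp7b1 and Cyp8b1 lower on high fat, where it called 1386 and 605 of all genes tested. The bile acid list had a median of -0.33, with 2 of 8 genes above 0. The share of all genes called over both fat levels was 6.92%. The calls of Fgf1, Atf4, Eif2ak3, Xbp1 and Cyp7b1 were close to the threshold, and each held in at most 5 of the 12 fits that left out 1 mouse, with adjusted p up to 0.109, 0.107, 0.120, 0.110 and 0.0888. In the same comparison the calls of Sulf2, Mmp14, Spry4, Atf5 and Ppargc1a held in all 12. Without the 5 mice with acinar RNA, Sulf2, Spry4 and Atf5 were still called over both fat levels and the other 7 were not. Etv5 and Nupr1 were called there in addition. In the comparisons of fat level and in the interaction edgeR called 0 pathway genes, and DESeq2 called Spry4 in HF.SAAR vs. RF.SAAR and Atf5 in the interaction.

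**Figure D5:**
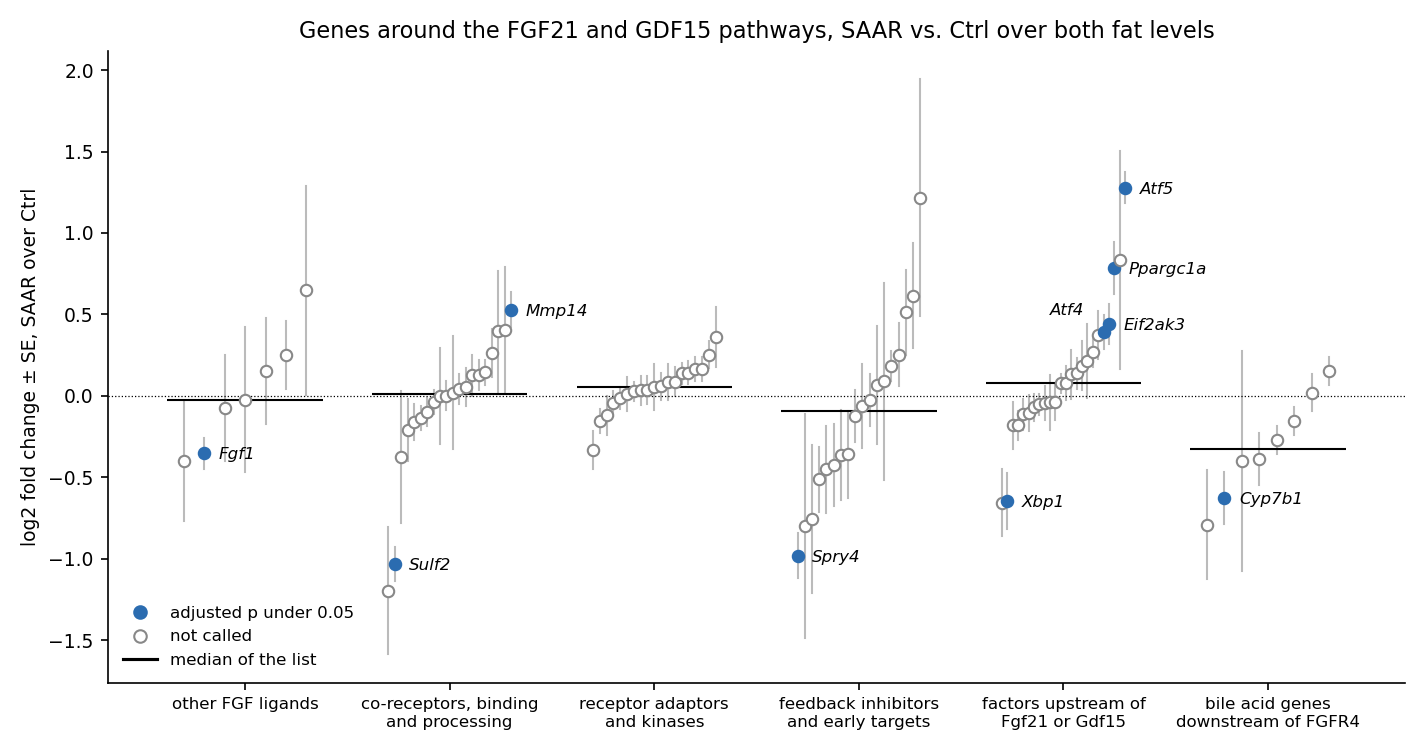
Log2 differences with SAAR over both fat levels for each tested gene of the 6 pathway lists, with vertical lines for the standard error, called genes filled and named, and a bar at each list's median. The medians run from -0.33 for the bile acid genes to 0.08 for the upstream factors, and the named genes run from Sulf2 at -1.03 to Atf5 at 1.28.

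The genes whose log2 CPM followed each of the 7 most closely over the 12 mice are given as a description, since the mice share diets and many genes differ with diet. Fgf21 was followed by Dnajc12, a DnaJ-type protein, with a Pearson r of 0.96, Grpel2, a mitochondrial import co-chaperone (0.95), Clca3a1 (0.95), Gadd45b, a stress-induced regulator of growth arrest (0.94) and Hsd17b13, a lipid droplet protein (0.94). With group means taken out, these r values were 0.73, 0.53, 0.62, 0.72 and 0.38. Gdf15 was followed by Gm7332 (0.88, at a low mean of 1.17 CPM), Mfsd11 (0.845), Inppl1 (0.84), Mtrf1l (0.83) and Tmem43 (0.82). Klb was followed by Spag9 (0.93), Setd2 (0.92), Rbm33 (0.91), Tmem72 (0.91) and Ccdc141 (0.91), and these stayed at 0.87 to 0.97 with group means taken out. Fgfr1 was followed by Crybb3 (0.95, at a low mean of 0.49 CPM), Qars (0.92), Hsp90b1 (0.90), Fkbp11 (0.88) and Retreg3 (0.88). Fgfr2 was followed by Eif2ak3 (0.94), Ap3d1 (0.91), Eif3a (0.90), Ppfibp1 (0.90) and Xpot (0.90). Fgfr3 was followed by Zadh2 (0.96), Tbccd1 (0.94), Tiam2 (0.94), Rtn4ip1 (0.94) and Slc35d2 (0.94). Fgfr4 had the weakest followers, with Tprn and Prex1 both at 0.82, Dlgap1 at 0.82, and Zbtb5 and Dnajb5 both at 0.80. Between Fgf21 and Fgfr3 the r over 12 mice was -0.86, and with group means taken out it was -0.11.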

How the data were processed

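RNA of 12 mouse livers was sequenced after polyA selection. Per the labels, the authors used FastQC, cutadapt, kallisto and DESeq2, and their methods name the Ensembl v94 mouse annotation (GRCm38). The deposited values are estimated counts and TPM per transcript with effective lengths in bases; the authors did not pool mice and no filter on low counts was applied. Estimated counts are not whole, and were summed per gene and rounded. Of 118489 transcripts, 116816 were matched to genes. The 1673 others, with 0.704 to 1.797% of counts, were left out.

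edgeR 4.0.16 (R 4.3.3; TMM factors, filterByExpr, robust quasi-likelihood fit, Benjamini-Hochberg adjustment over 14670 genes) used all 12 mice in 1 fit, without covariates, after the 2-factor design of the study; DESeq2 1.42.0 was an alternative. CPM are counts relative to the TMM-scaled library size. Single genes were also tested by exact permutation of log2 CPM with a prior count of 2. Standard errors are the log2 fold change divided by the square root of F. Transcripts were tested in the same way. The edgeR step was tested on simulated data. Replicates were numbered in accession order.

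The 7 genes, the gene lists (other ligands, binding partners, adaptors, feedback inhibitors, upstream factors, bile acid genes and cell type markers) and the tests were chosen with earlier results of these data known. Named were all 7 genes, called list genes or else the smallest p, the 5 genes most correlated with each member, and protein-coding transcripts with at least 5% of a gene's counts. The gene with the smallest p of a list with no call is not reported here. Counts carry no molecular identifiers, so errors are the spread between mice. Alternatives were another normalization, other filters, effective length offsets, fits to the compared groups, the largest transcript, and omission of each mouse. The acinar covariate and the omission of mice over 1000 acinar CPM are included. TPM in the exact tests and library sizes without acinar genes were added after seeing the data.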

Additional observations from a re-analysis of the deposited data

How the results depend on the processing

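No paired analysis was made, since each mouse ate only 1 of the diets and the labels name no pairs of mice. Of 862 values recomputed under other settings, 737 kept their direction and side of the threshold or stayed within the allowed range, and of 1116 that left out 1 mouse 966 did. The causes of the shifts below were not tested, except that settings without mice have fewer samples. Over all genes, calls on regular fat, on high fat and over both were 218, 289 and 1015 in the report, 425, 719 and 2449 by library size alone, 606, 605 and 1386 by DESeq2, 53, 127 and 531 over transcripts, and 81, 6 and 234 without the mice over 1000 acinar CPM. Fits to the compared groups only, which called 190 genes on high fat, could not be made for contrasts of all 4 groups. For HF.SAAR vs. RF.SAAR, HF vs. RF and the interaction the calls over all genes were 7, 6 and 1 by edgeR and 86, 125 and 16 by DESeq2, and 0 to 18 by the others.

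Leaving out 1 mouse left 0 to 2 of the 7 genes past the threshold for SAAR on regular fat and 0 to 2 on high fat. The log2 ranges were 3.15 to 4.30 and 4.08 to 4.96 for Fgf21 on regular and high fat, -0.056 to 0.14 for Klb on regular fat, -0.030 to 0.035 for Fgfr4 on high fat, -0.029 to 0.54 for Fgf21 in HF vs. RF and -0.65 to 1.19 for the Gdf15 interaction. Klb over both fat levels was called without HF.Ctrl replicate 3 (0.36, adjusted p = 0.0457 in edgeR).

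On regular fat the genes called of the 7 were 2 with at least 10 counts in every mouse, 2 by DESeq2, 2 with the acinar covariate and 0 by the largest transcript. Fgf21 was called there at 3.90 (library size alone), 3.72 (at least 10 counts), 3.74 (length offsets), 3.76 (DESeq2) and 4.06 (covariate). Fgfr4 reached 0.057 by library size alone, and Klb -0.078 with the covariate and -0.055 without acinar mice. On high fat 1 gene was called by library size alone, length offsets, compared groups only or the largest transcript, and 0 without acinar mice, where Fgf21 was 3.77. Fgfr1 was 0.15 with length offsets and Fgfr4 -0.015 by the largest transcript. Over both fat levels 1 gene was called with length offsets, the largest transcript or without acinar mice (there Fgfr3, with Fgf21 at 3.72 and an adjusted p of 0.230 in edgeR), and Fgfr4 was 0.12 by library size and 0.037 with length offsets.

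For fat content, Fgf21 in HF.SAAR vs. RF.SAAR was -0.48 with the covariate and -0.76 without acinar mice, and Klb in HF.Ctrl vs. RF.Ctrl 0.0084 without them. In HF vs. RF, Fgfr2 was 0.032 with length offsets and 0.016 by the largest transcript, Fgf21 -0.55 and Klb 0.11 with the covariate, and Fgf21 -0.81, Gdf15 -0.43, Klb 0.12 and Fgfr1 -0.13 without acinar mice. In the exact tests, Fgfr4 with SAAR was 0.12 by library size and 0.34 in TPM, Fgfr1 0.13 in TPM, and without acinar mice Fgf21, Gdf15, Klb and Fgfr1 differed by -0.51, -0.041, 0.12 and -0.10 between fat levels.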
